A study of Caenorhabditis elegans with 12 samples.

Results

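The middle dose of AO168=O, 2000 ng/g of agar, was set against the lowest dose, 400 ng/g, in whole L4 larvae of Caenorhabditis elegans. This comparison takes 6 of the 12 libraries of the series and the 16665 genes, of 46987 features counted, that passed a filter on low counts. AO168=O is the phosphate formed when the phosphite antioxidant AO168, an additive of plastics, is oxidised. The 3 libraries at 2000 ng/g and the 3 at 400 ng/g came from worms of the Bristol N2 wild type, hatched from bleached eggs and kept at 25 °C on agar that held the compound for about 46 h. Agar of both doses, like that of the solvent control, held 0.01% ethanol, so the ethanol was shared by every worm compared. Each library was made from poly(A) RNA of about 1000 pooled worms. The 3 libraries of a dose are given as independent biological replicates by the series, and the labels do not divide them into batches. The edgeR and DESeq2 p-values below measure only the spread between libraries of the same group, estimated over all 12 libraries of the series. The permutation p for ribosomal RNA uses only the 6 libraries compared.

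An L4 hermaphrodite makes its sperm and then turns to oocytes, while its epidermis prepares the adult cuticle for the last molt. Transcripts of these programmes are known to change within hours at this stage. The mitochondrial genome of the worm encodes core subunits of the respiratory chain and the ribosomal RNAs of the mitochondrion, and is transcribed apart from the nuclear genes. Neuropeptides of the FMRFamide-like (FLP) family are cut from precursors in dense core vesicles of neurons and act on muscle contraction, feeding and egg laying. In RNA of whole worms, fewer cells of a type and less RNA per cell cannot be told apart.

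The libraries held 38867092, 38911190 and 37199300 counts at 2000 ng/g and 47211800, 40364995 and 42910919 at 400 ng/g. Defining markers of sperm, oocytes, germ line, neurons, body muscle, intestine and the molt were present at both doses. Markers of yolk and adult cuticle were present too and varied within a dose. The yolk gene vit-6 had 12.8 to 44.2 FPKM at 2000 ng/g and 1.31 to 43.5 FPKM at 400 ng/g. The adult collagen gene col-19 had 13.8 to 37.4 and 5.25 to 41.7 FPKM. Of the 6 markers of zygotic embryos med-2 was highest, at 0.35 to 0.452 FPKM at 2000 ng/g and 0.654 to 0.953 FPKM at 400 ng/g. The embryo markers end-1, end-3, tbx-37 and ceh-51 stayed at or below 0.439 FPKM in each library, and pes-10 was at 0 in all 6. Replicates 1 and 2 at 400 ng/g stood apart from the rest. Their scores on the first principal component of the 6 libraries, which held 37.3% of the variance, were 74 and -45.7, against a range from -13.5 to 5.9 at 2000 ng/g and -12.2 for 400 ng/g replicate 3. Replicate 3 at 2000 ng/g lay at 57.6 on the second component, with 34.1% of the variance. Replicates 2 and 1 at 400 ng/g lay on its other side, at -51.3 and -31.8. Expression is given as CPM, counts scaled to library size. Spearman correlations of log2 CPM were between 0.964 and 0.993 within the doses and had the same limits between them.

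No gene passed an adjusted p of 0.05 in the quasi-likelihood test of edgeR, in either direction: 0 of 16665 genes (0%) were higher and 0 (0%) were lower at 2000 ng/g. The smallest adjusted p was 0.522. Without adjustment, edgeR gave p under 0.05 for 849 genes higher at 2000 ng/g (5.09%) and 694 lower (4.16%). DESeq2, used as a second test, called 6 genes higher (0.036%) and 6 lower (0.036%). In 781 genes (4.69%) all 3 libraries at 2000 ng/g lay above all 3 at 400 ng/g, and in 1044 genes (6.26%) all 3 lay below. The median log2 fold change of all genes tested, 2000 over 400 ng/g, was -0.0361, with 9526 genes (57.2%) negative. All values below are therefore levels and differences, not calls, unless DESeq2 is named.

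The 12 calls of DESeq2 were named for that reason after their values were seen, where the rule for named genes had not already taken them. Higher at 2000 ng/g were the pseudogene WBGene00015761, F37A8.2, T21C12.8, T08G11.2, comt-4 and the pseudogene WBGene00015243. Lower were the mitochondrial genes WBGene00010965 and WBGene00014454, rrn-1.1, fip-2, tsp-3 and F09C6.3. The smallest DESeq2 adjusted p, 0.00224, belonged to WBGene00015761 and the others lay between 0.0443 and 0.0471. In all 12 genes the libraries of the doses did not overlap. One was near the limit of counting: F09C6.3 had 0, 0 and 0 CPM at 2000 ng/g and 0.632, 0.292 and 0.142 CPM at 400 ng/g.

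Genes of the mitochondrial genome had lower levels at 2000 ng/g than at 400 ng/g, by small steps and in nearly every library. All 13 that were tested had a negative log2 fold change, and in 12 of them (92.3%) every library at 2000 ng/g lay below every library at 400 ng/g, beside 6.26% of all genes. For the 11 tested of the 12 protein genes the median was -0.32, beside -0.0361 for all genes, and the range was -0.51 to -0.23.

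Cytochrome c oxidase, the terminal enzyme of the respiratory chain, has 3 subunits encoded there. WBGene00010965, annotated as subunit 2 (MtDNA, 9649 to 10348), had 1781, 1822 and 1769 CPM at 2000 ng/g and 2801, 2370 and 2324 CPM at 400 ng/g. The doses did not overlap, and the log2 fold change was -0.48 ± 0.118 (SE), with a DESeq2 adjusted p of 0.0443 and an edgeR adjusted p of 0.522. WBGene00010964, annotated as subunit 1 (MtDNA, 7827 to 9428), averaged 4149 ± 211 CPM at 2000 ng/g and 4872 ± 438 CPM at 400 ng/g (n = 3 each, SD), a log2 fold change of -0.23 ± 0.143. COX3, subunit 3 (MtDNA, 5678 to 6449), averaged 2178 ± 116 CPM at 2000 ng/g and 2679 ± 300 CPM at 400 ng/g, a log2 fold change of -0.30 ± 0.151. The doses did not overlap in any of the 3 subunits, and the gap between them was widest in subunit 2.

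The subunits of complex I, which takes electrons from NADH, were lower by similar amounts. ND1 (MtDNA, 1763 to 2635) had 638, 648 and 607 CPM at 2000 ng/g and 707, 900 and 792 CPM at 400 ng/g. WBGene00010966, annotated as chain 3 (MtDNA, 11356 to 11691), had 180, 176 and 196 CPM at 2000 ng/g and 289, 203 and 295 CPM at 400 ng/g. WBGene00010961, annotated as chain 2 (MtDNA, 3389 to 4269), had 198, 217 and 222 CPM at 2000 ng/g and 270, 256 and 307 CPM at 400 ng/g. None of the 3 overlapped, and the log2 fold changes were -0.34 ± 0.127, -0.51 ± 0.153 and -0.39 ± 0.118. The annotations of ND1 and WBGene00010960, and of WBGene00010966 and WBGene00010967, overlap at their ends on the same strand. WBGene00010960, the a subunit of ATP synthase (MtDNA, 2634 to 3235), had 1380, 1373 and 1291 CPM at 2000 ng/g and 1650, 1694 and 1697 CPM at 400 ng/g, and WBGene00000829, cytochrome b (MtDNA, 4504 to 5621), had 1859, 1945 and 1768 CPM at 2000 ng/g and 2113, 2545 and 2243 CPM at 400 ng/g.

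The mean log2 CPM of the 11 protein genes, relative to the mean of the controls, was -0.15, -0.09 and -0.17 at 2000 ng/g and 0.15, 0.20 and 0.25 at 400 ng/g. The 3 controls, at 0.18, 0.05 and -0.23, spanned most of that interval, and the libraries at 10000 ng/g had -0.03, -0.01 and 0.11. Leaving out any of the 6 libraries kept the median of the 11 protein genes between -0.37 and -0.27. Among the nuclear genes of the respiratory chain, 56 of 62 tested, of 64 listed, were negative with a median of -0.09, and 3 (4.84%) lay lower without overlap, beside 6.26% of all genes. Their median was 0.06 without 400 ng/g replicate 2 and -0.21 without 400 ng/g replicate 1. Log2 fold changes of these nuclear genes ranged from -0.38 to 0.64. One of the negative members was cox-19, a factor for assembly of cytochrome c oxidase. It had 5.67, 7 and 6.37 CPM at 2000 ng/g and 8.37, 8.26 and 8.07 CPM at 400 ng/g.

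**Figure D1:**
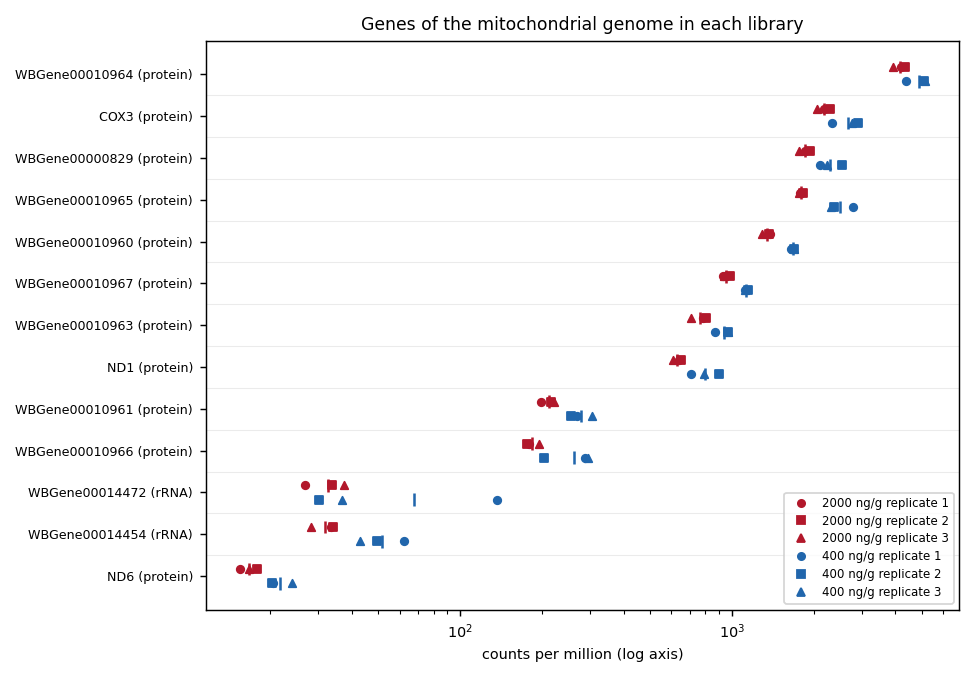
Level of each of the 13 tested genes of the mitochondrial genome in CPM (log axis), with 2000 ng/g in red above 400 ng/g in blue. Each symbol is a library and each short bar the mean of 3. The doses separate in 12 genes, and the exception is the ribosomal RNA WBGene00014472, where 400 ng/g replicate 1 had 137 CPM.

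Ribosomal RNA, which poly(A) selection leaves only as a remainder, was also lower at 2000 ng/g. It took 0.362%, 0.378% and 0.404% of the counts at 2000 ng/g and 0.494%, 0.694% and 0.564% at 400 ng/g. The doses did not overlap. The means were 0.381 ± 0.0214% at 2000 ng/g and 0.584 ± 0.102% at 400 ng/g (n = 3 each, SD), a difference of -0.202 percentage points with a two-sided exact permutation p of 0.1, the smallest that 20 groupings allow. The controls held 0.682%, 0.594% and 0.721%.

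By gene, the 18S ribosomal RNA copy rrn-1.1 WBGene00004513 (chromosome I, 15069280 to 15071033) had 90.7, 90.7 and 94.0 CPM at 2000 ng/g and 115 to 202 CPM at 400 ng/g. Its copy WBGene00004512 had 52.6, 54.4 and 57.4 CPM at 2000 ng/g and 67.6, 124 and 94.4 CPM at 400 ng/g, and reads of these copies cannot be assigned with certainty. The small ribosomal RNA of the mitochondrion, WBGene00014454 (MtDNA, 898 to 1593), had 33.5, 34.2 and 28.3 CPM at 2000 ng/g and 62.3, 49.4 and 43 CPM at 400 ng/g. The doses were apart in 4 of the 6 ribosomal RNA genes tested (66.7%), with 2000 ng/g lower, beside 6.26% of all genes. The other 2 overlapped: the large ribosomal RNA of the mitochondrion, WBGene00014472, had 27, 33.9 and 37.4 CPM at 2000 ng/g and 137, 30.2 and 36.8 CPM at 400 ng/g, and rrn-2.1 (WBGene00004567) had 3.05, 2.14 and 3.1 CPM at 2000 ng/g and 2.34, 4.47 and 3.42 CPM at 400 ng/g. Replicate 1 at 400 ng/g was the lowest of its dose for nuclear ribosomal RNA and the highest for both mitochondrial ones. Counts of the mitochondrial genome as a whole took 1.39%, 1.47% and 1.39% of the counts at 2000 ng/g and 1.85%, 1.55% and 1.74% at 400 ng/g. Within 400 ng/g the order of the libraries was the reverse of that of the ribosomal share, and the controls, with the highest ribosomal shares on average, held 1.62%, 1.61% and 1.34% of mitochondrial counts.

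Neuropeptide genes were lower at 2000 ng/g than at 400 ng/g in most of the FLP family. Of 31 genes listed, 30 were tested and 29 (96.7%) had a log2 fold change below 0, and the median was -0.38 in a range of -0.59 to 0.09. In 19 of the 30 (63.3%) the doses did not overlap, all of them lower at 2000 ng/g, beside 6.26% of all genes, and 19 had an unadjusted edgeR p under 0.05, beside 4.16% of all genes.

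The FLP gene with the smallest unadjusted p was flp-22 (WBGene00009562, chromosome I, 8658899 to 8659967), with 22.4, 21.6 and 20.5 CPM at 2000 ng/g and 37.7, 26.6 and 28.7 CPM at 400 ng/g. Expression of flp-6 (WBGene00001449, chromosome V, 9471975 to 9473792) was 29.4, 27 and 26.1 CPM at 2000 ng/g and 42.8, 35.5 and 33.1 CPM at 400 ng/g. In flp-1, known from the control of locomotion, the libraries had 57.5, 64.8 and 52.5 CPM at 2000 ng/g and 85.2, 83.3 and 69.5 CPM at 400 ng/g. These 3 genes did not overlap between the doses, and their log2 fold changes were -0.53 ± 0.128, -0.43 ± 0.111 and -0.45 ± 0.118. Of them, flp-1 overlaps daf-10 on the opposite strand. The one positive member was flp-10, at 14.8, 14 and 16 CPM at 2000 ng/g and 18.5, 10.8 and 12.7 CPM at 400 ng/g, with overlapping doses.

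Genes of 2 enzymes that mature these peptides, egl-3 and egl-21 of the pan-neuronal list, were lower as well. For egl-3, the proprotein convertase that cuts the precursors (WBGene00001172, chromosome V, 10169177 to 10173753), there were 289, 321 and 266 CPM at 2000 ng/g and 394, 336 and 325 CPM at 400 ng/g. For egl-21, the carboxypeptidase that trims the cut ends (WBGene00001189, chromosome IV, 10478442 to 10481844), there were 233, 247 and 209 CPM at 2000 ng/g and 299, 296 and 262 CPM at 400 ng/g. The doses were apart in both, with log2 fold changes of -0.27 ± 0.107 and -0.32 ± 0.108. Outside the FLP family, neuropeptide-like genes were counted as a list only for the epidermal peptides nlp-24 to nlp-34 and cnc. The examples nlp-80 and nlp-15 therefore give no direction for the rest. Expression of nlp-80 (WBGene00011428) averaged 36.6 ± 2.84 CPM at 2000 ng/g and 49.4 ± 2.19 CPM at 400 ng/g, and nlp-15 (WBGene00003753) averaged 29.3 ± 1.31 CPM at 2000 ng/g and 39.0 ± 3.19 CPM at 400 ng/g (n = 3 each, SD).

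Other neuronal lists had smaller medians. Of 28 pan-neuronal genes tested, which include egl-3 and egl-21, 19 were negative and the median was -0.11, which was -0.02 without 400 ng/g replicate 2 and -0.03 without 2000 ng/g replicate 3. Of 81 tested cys-loop receptor subunits, the channels for acetylcholine, GABA and other transmitters, 54 were negative with a median of -0.13, and in 10 (12.3%) the doses did not overlap with 2000 ng/g lower, beside 6.26% of all genes. The median of these subunits was -0.06 without 400 ng/g replicate 2 and -0.07 without 2000 ng/g replicate 3. Insulin-like peptide genes, of which 27 of 39 listed were tested, had 21 negative and a median of -0.27. This median was -0.43 without 400 ng/g replicate 2 and -0.22 without 400 ng/g replicate 1, where 17 of 28 tested were negative. In 4 of the 27 (14.8%) the doses did not overlap with 2000 ng/g lower, beside 6.26% of all genes. In ins-17 (WBGene00002100) the libraries had 12.6, 16.8 and 15 CPM at 2000 ng/g and 21.2, 18.3 and 18.9 CPM at 400 ng/g, without overlap.

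The mean log2 CPM of the FLP genes relative to control was -0.02, 0.05 and -0.17 at 2000 ng/g and 0.55, 0.18 and 0.19 at 400 ng/g. The libraries at 2000 ng/g lay near the controls, which had 0.02, -0.06 and 0.03, while those at 400 ng/g and at 10000 ng/g, at 0.14, 0.32 and 0.31, lay above them. Replicate 1 at 400 ng/g was the highest of all 12, and without it the median of the family was -0.23. It was the highest of the 6 libraries of both doses in 26 of the 30 genes. In flp-22 the log2 fold change was -0.01 for 2000 ng/g over control and 0.52 for 400 ng/g over control, comparisons that share the control libraries.

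**Figure D2:**
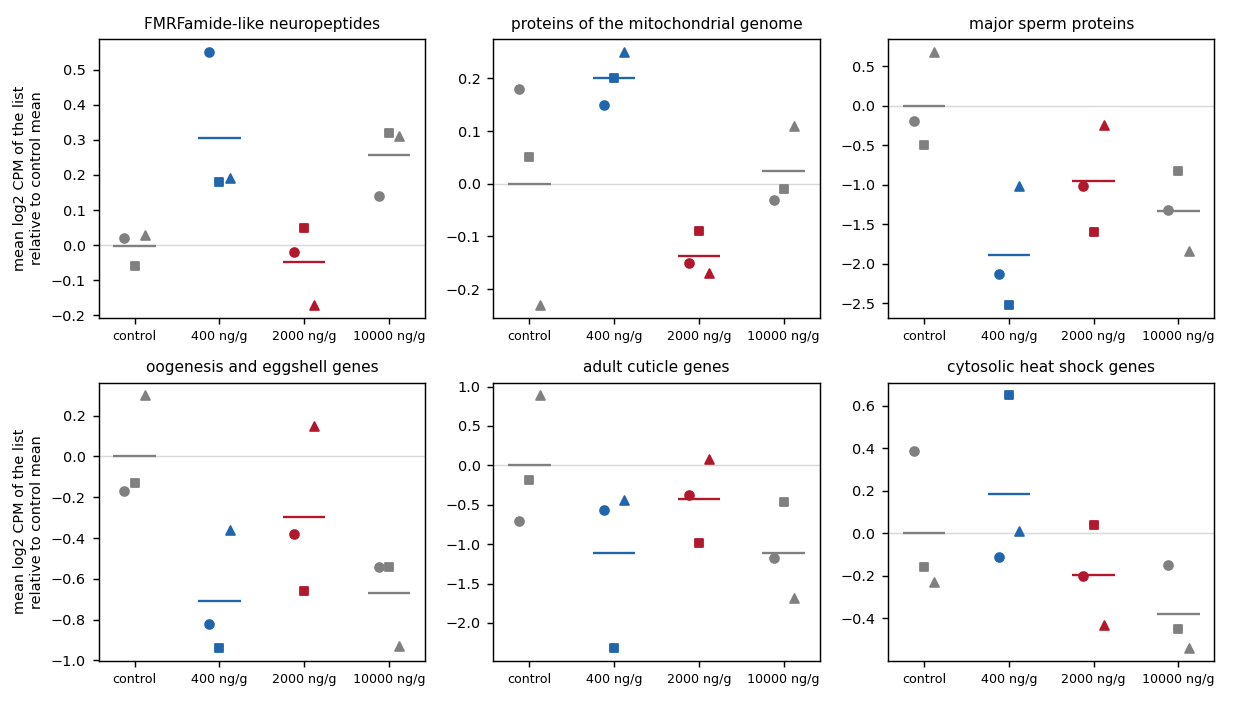
Mean log2 CPM of 6 gene lists in each of the 12 libraries, relative to the mean of the controls, with control, 400, 2000 and 10000 ng/g from left to right. Circles, squares and triangles are replicates 1, 2 and 3 and bars are means of 3. The doses 2000 (red) and 400 ng/g (blue) separate for FLP neuropeptides and mitochondrial proteins and overlap for sperm, oocyte, cuticle and heat shock genes.

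Genes of sperm and oocytes were higher at 2000 ng/g on average, but the libraries of the doses overlapped. Of 31 major sperm protein genes, whose product drives the crawling of sperm and signals to oocytes, 29 were tested and all 29 of these had a log2 fold change above 0, and the median was 0.95. In 0 of the 29 were the doses apart, and 10 had an unadjusted edgeR p under 0.05, beside 5.09% of all genes. Reads of these near-identical copies cannot be assigned with certainty. In msp-40 (WBGene00003435, chromosome II, 4825414 to 4825797) there were 35.4, 28.3 and 63.9 CPM at 2000 ng/g and 16.3, 13 and 35.1 CPM at 400 ng/g. Replicate 3 was the highest library at both doses, and replicate 3 at 400 ng/g had more than replicate 2 at 2000 ng/g.

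Other genes of spermatogenesis had the same direction, 60 of 63 tested of 68 listed, with a median of 0.91. In 8 of them (12.7%) the doses did not overlap, beside 4.69% of all genes. The Argonaute gene alg-4 (WBGene00006449, chromosome III, 9887209 to 9891424), needed for small RNAs of the male germ line, had 52, 42.5 and 82.7 CPM at 2000 ng/g and 27.1, 22.9 and 40.9 CPM at 400 ng/g. The sperm calcium channel gene spe-41 (WBGene00004976, chromosome III, 3439011 to 3444210) had 17, 14.3 and 27.2 CPM at 2000 ng/g and 10.9, 8.29 and 13.5 CPM at 400 ng/g. In both, the lowest library at 2000 ng/g lay just above the highest at 400 ng/g, and the log2 fold changes were 0.96 ± 0.290 and 0.84 ± 0.258. Others were spe-46, spe-10, spe-4, spe-54 and spe-26, with log2 fold changes from 0.46 for spe-4 to 1.23 for spe-10.

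Of 35 genes of oogenesis and the eggshell, all tested, 34 were positive with a median of 0.44. In 1 of them (2.86%), puf-7, the doses did not overlap, beside 4.69% of all genes higher. This RNA-binding Pumilio protein of the germ line (WBGene00004243, chromosome IV) had 9.16, 7.83 and 15.5 CPM at 2000 ng/g and 7.47, 6.39 and 7.41 CPM at 400 ng/g. General germ-line genes had 29 of 34 positive and a median of 0.13, which ranged from 0.02 without 2000 ng/g replicate 3 to 0.28 without 400 ng/g replicate 1. In csr-1, the Argonaute that guards expressed germ-line genes (WBGene00017641), there were 196, 184 and 248 CPM at 2000 ng/g and 179, 165 and 183 CPM at 400 ng/g. In pgl-1, a protein of the P granules, there were 222, 211 and 274 CPM at 2000 ng/g and 192, 208 and 203 CPM at 400 ng/g.

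These lists depend on few libraries. Without replicate 3 at 2000 ng/g the median of the major sperm proteins was 0.50, that of the other spermatogenesis genes 0.52 and that of oogenesis 0.13. Without replicate 3 at 400 ng/g the medians of the first pair were 1.53 and 1.24. Against control, the list medians of major sperm proteins were -0.94 at 2000 ng/g and -1.84 at 400 ng/g, from comparisons that share the controls. The vitellogenins, yolk proteins of the adult intestine, varied without regard to dose: vit-6 had 223, 64.5 and 137 CPM at 2000 ng/g and 6.66, 78.4 and 219 CPM at 400 ng/g.

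Among collagens of the adult cuticle and related genes, 7 of 9 were positive with a median of 0.60, and 0 of 9 had doses that were apart. The median was 0.35 without 2000 ng/g replicate 3, 0.36 without 400 ng/g replicate 2 and 0.91 without 400 ng/g replicate 3. The collagen gene bli-1 (WBGene00000251, chromosome II, 10708960 to 10712156), which builds the struts of the adult cuticle, had 317, 323 and 503 CPM at 2000 ng/g and 337, 166 and 251 CPM at 400 ng/g. The collagen gene col-49 (WBGene00000626) had 236, 169 and 388 CPM at 2000 ng/g and 159, 54 and 174 CPM at 400 ng/g. In both, replicate 2 at 400 ng/g was the lowest of the 6 and replicate 3 at 2000 ng/g the highest. bli-1 overlaps dph-2 on the opposite strand.

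Genes of the molting cycle had 22 of 38 positive and a median of 0.05, which was -0.05 without 400 ng/g replicate 1 and 0.19 without 400 ng/g replicate 2. Hedgehog-related and patched-related genes, which act in the epidermis and in molting, had 50 of 78 tested positive with a median of 0.10, which was 0.01 without 400 ng/g replicate 1. In 9 of the 78 (11.5%) the doses did not overlap with 2000 ng/g higher, beside 4.69% of all genes, and in 3 (3.85%) with 2000 ng/g lower, beside 6.26%. By unadjusted edgeR p under 0.05, 5 were higher and 6 lower. Among the 9, wrt-6 (WBGene00006952, chromosome X) had 131, 134 and 182 CPM at 2000 ng/g and 99.6, 84.3 and 116 CPM at 400 ng/g, and qua-1 (WBGene00004264, chromosome II) had 295, 279 and 272 CPM at 2000 ng/g and 202, 248 and 244 CPM at 400 ng/g. Their log2 fold changes were 0.57 ± 0.182 and 0.29 ± 0.105.

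A separate group of genes was high in a single library. In 400 ng/g replicate 1, 58 genes had at least 5 CPM and at least 5 times the level of each of the other 5 libraries. The corresponding number was 1 for 2000 ng/g replicate 1 and 0 for each of the other 4. Genes at least 5 times lower than in each of the other 5 libraries, all at 5 CPM or more, were also counted. They numbered 16 in 400 ng/g replicate 1, 4 in 400 ng/g replicate 2 and 0 in each of the rest. Of the 58, 20 were cuticle collagens named col and 7 were ground-like genes named grl. These genes were counted after their values were seen. The collagen gene col-43 had 15, 7.18 and 4.42 CPM at 2000 ng/g and 317, 5.81 and 9.90 CPM at 400 ng/g. The ground-like gene grl-20 (WBGene00001729) had 1.39, 0.412 and 0.526 CPM at 2000 ng/g and 54.2, 0.817 and 1.09 CPM at 400 ng/g. The cuticlin gene cut-1, known from the dauer larva, had 2.07, 0.618 and 0.737 CPM at 2000 ng/g and 70.8, 0.554 and 1.52 CPM at 400 ng/g.

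The collagen and grl genes of that group were not unique to the library. In control replicate 3, 10 of the 58 genes passed the same limit, 6 of them col and 3 grl. In 10000 ng/g replicate 2, 8 did, 5 of them col and 2 grl. The number was 1 in control replicate 2 and 0 in replicate 1 of control and of 10000 ng/g. In 10000 ng/g replicate 3, 42 of the 58 genes passed the same limit against the other 5 libraries, and they included all 20 of the col and all 7 of the grl genes. There col-43 had 357 CPM, grl-20 62 CPM and cut-1 103 CPM. Others were not high in that library: clec-47, a C-type lectin gene (WBGene00011668), had 101 CPM in 400 ng/g replicate 1 and 11.6 CPM in 10000 ng/g replicate 3, and cpr-2, a cysteine protease gene (WBGene00000782), had 36.9 CPM in the first and 0.986 CPM in the second. The fatty acid desaturase gene fat-5 had 4.81, 7.62 and 7.13 CPM at 2000 ng/g and 68.3, 3.97 and 5.03 CPM at 400 ng/g. Unlike clec-47 and cpr-2, fat-5 was also high in 10000 ng/g replicate 3, with 25.6, 26.4 and 39.2 CPM in the libraries of that dose. The log2 fold change over all libraries was -4.59 for grl-20 and -3.84 for clec-47, and without 400 ng/g replicate 1 the log2 fold changes of clec-47, fat-5 and cpr-2 were 0.88, 0.55 and 0.78.

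**Figure D3:**
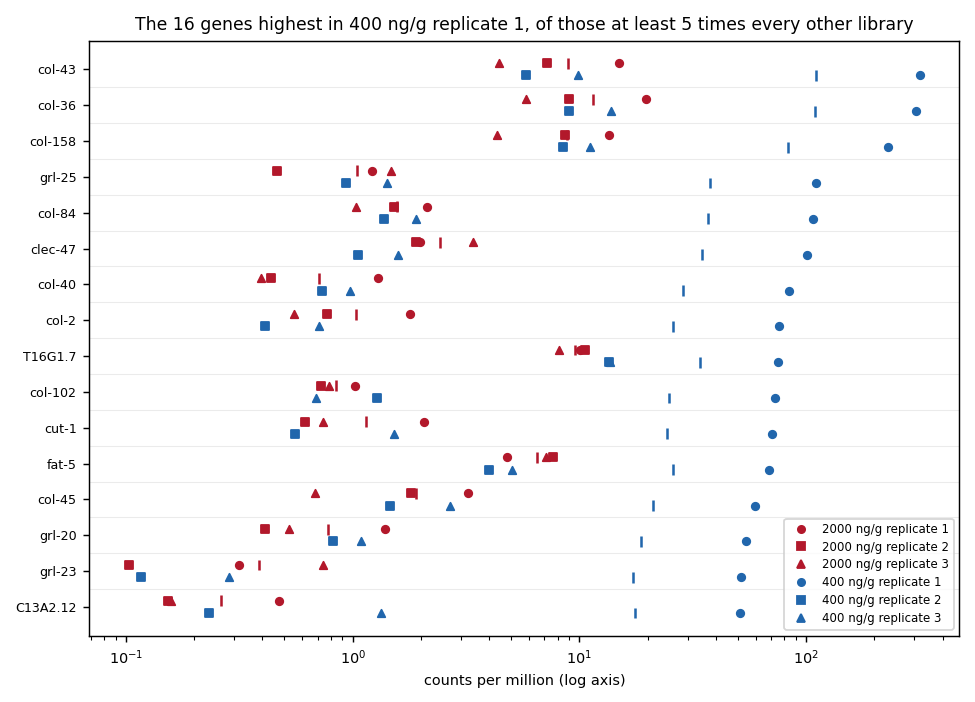
The 16 genes with the highest level in 400 ng/g replicate 1, of the 58 that were there at least 5 times as high as in each of the other 5 libraries, in CPM (log axis). Symbols are libraries, with 2000 ng/g in red above 400 ng/g in blue, and short bars are means of 3. A single blue circle lies far to the right in every gene, and it carries the mean of 400 ng/g.

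Nuclear hormone receptors, ligand-gated transcription factors that the worm holds in large number, had 167 of 203 tested (82.3%) negative with a median of -0.16, and in 27 (13.3%) the doses did not overlap with 2000 ng/g lower, beside 6.26% of all genes. The median without 400 ng/g replicate 1 was -0.06. Among those with at least 1 CPM, nhr-74 (WBGene00003664) had 1.08, 1.03 and 0.763 CPM at 2000 ng/g and 3.79, 2.95 and 1.76 CPM at 400 ng/g. The doses did not overlap in this gene.

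Cytochrome P450 genes, for oxidation of lipids and foreign compounds, had 50 of 70 tested negative with a median of -0.29, which was -0.06 without 400 ng/g replicate 1. In cyp-37A1 (WBGene00008499, chromosome II, 14013819 to 14016965) there were 63.5, 66.9 and 54.1 CPM at 2000 ng/g and 102, 80.0 and 77.4 CPM at 400 ng/g, a log2 fold change of -0.49 ± 0.128 without overlap. Genes of glutathione S-transferases, which conjugate electrophiles, had 37 of 44 tested negative with a median of -0.23, which was -0.10 without 400 ng/g replicate 2 and -0.14 without 2000 ng/g replicate 3. In gst-6 (WBGene00001754) there were 31, 31.4 and 25.6 CPM at 2000 ng/g and 37.4, 50.2 and 36.7 CPM at 400 ng/g. UDP-glucuronosyltransferases had a median of -0.04 over 63 genes, and ABC transporters one of 0.01 over 52. These were 0.12 and 0.13 without 400 ng/g replicate 2, and -0.14 and -0.03 without 400 ng/g replicate 1.

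Short-chain dehydrogenases had 25 of 30 negative, a median of -0.20 and 6 (20%) with doses apart and 2000 ng/g lower, beside 6.26% of all genes. The median was -0.12 without 400 ng/g replicate 2. In dhs-18 (WBGene00000981, chromosome V, 11045705 to 11046833) there were 45.6, 47.5 and 40.2 CPM at 2000 ng/g and 79.3, 57.3 and 61.6 CPM at 400 ng/g, a log2 fold change of -0.57 ± 0.134. It overlaps C45B11.6 on the opposite strand. In dhs-19 (WBGene00000982) there were 27.2, 32.4 and 25.4 CPM at 2000 ng/g and 50, 34.7 and 34.3 CPM at 400 ng/g. Both had separate doses with 400 ng/g replicate 1 the highest.

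Lists of lipid genes had little net difference. Fatty acid synthesis and desaturation genes had a median of -0.01 over 23 genes, and fatty acid oxidation and lipase genes a median of -0.06 over 69. Over single omissions these medians ranged from -0.06 to 0.05 and from -0.08 to 0.04. Among the oxidation and lipase genes, the acyl-CoA synthetase gene acs-15 (WBGene00019920) had 4.75, 3.73 and 6.55 CPM at 2000 ng/g and 2.16, 1.84 and 3.02 CPM at 400 ng/g. Of 16 fatty acid and retinol binding proteins tested, of 17 listed, 5 (31.2%) had doses that were apart with 2000 ng/g lower, beside 6.26% of all genes. The median of the 16 was -0.13, which ranged from -0.22 without 2000 ng/g replicate 2 to -0.07 without 400 ng/g replicate 3. One was lbp-5, at 28.3, 26.6 and 23.5 CPM at 2000 ng/g and 28.6, 34.8 and 32.9 CPM at 400 ng/g.

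Genes of the cytosolic heat shock list, which includes chaperones induced by misfolded protein, were all negative, 16 of 16, with a median of -0.39. In 2 of them (12.5%) the doses did not overlap with 2000 ng/g lower, beside 6.26% of all genes. The inducible chaperone gene hsp-70 (WBGene00002026, chromosome I, 9320325 to 9322519) had 60.7, 80.2 and 60.1 CPM at 2000 ng/g and 98.5, 162 and 83.7 CPM at 400 ng/g, and overlaps uggt-2 on the opposite strand. The small heat shock protein gene hsp-43 (WBGene00002024) had 50.7, 60.8 and 48.9 CPM at 2000 ng/g and 66.6, 66.3 and 63.1 CPM at 400 ng/g. Without 400 ng/g replicate 2 the list median was -0.07, and in hsp-70 that library stood above the rest.

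Genes of defence against oxidants had 20 of 25 tested negative with a median of -0.09 (-0.15 without 400 ng/g replicate 1 and -0.05 without 400 ng/g replicate 3). In 2 of the 25 (8%) the doses did not overlap with 2000 ng/g lower, beside 6.26% of all genes. Both were neighbouring catalase genes. The cytosolic catalase gene ctl-1 (WBGene00000830, chromosome II, 14303568 to 14306260) had 32.6, 38.9 and 32.1 CPM at 2000 ng/g and 47.9, 54 and 40.7 CPM at 400 ng/g. The peroxisomal catalase gene ctl-2 (WBGene00000831, chromosome II, 14299556 to 14302027) had 194, 236 and 214 CPM at 2000 ng/g and 314, 251 and 260 CPM at 400 ng/g. Their log2 fold changes were -0.46 ± 0.117 and -0.36 ± 0.124. Reads of these related catalases may be shared.

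The lists of antimicrobial genes had small negative medians. Epidermal peptides nlp-24 to nlp-34 and cnc, with 34 of 51 listed tested, had 25 negative and a median of -0.18. In 5 of these (14.7%) the doses did not overlap with 2000 ng/g lower, beside 6.26% of all genes, and in 0 with 2000 ng/g higher. Over single omissions the median of this list ranged from -0.28 to -0.07. Lysozymes and saposin-like proteins had 28 of 43 tested negative with a median of -0.14, and C-type lectins had 75 of 146 negative with a median of -0.02. Without 400 ng/g replicate 1 the median of the lysozymes and saposin-like proteins was -0.01, and over single omissions that of the lectins lay between -0.08 and -0.03. The saposin-like gene spp-1 (WBGene00004986, chromosome III, 10355098 to 10355668), for a pore-forming protein of the intestine, had 83.3, 83.7 and 76.5 CPM at 2000 ng/g and 139, 100 and 109 CPM at 400 ng/g. The fungus-induced peptide gene fip-2 (WBGene00020862, chromosome V, 9067978 to 9068390) had 43.4, 38.8 and 40.8 CPM at 2000 ng/g and 60.5, 57.7 and 53.0 CPM at 400 ng/g. Both were below in every library, with log2 fold changes of -0.52 ± 0.123 and -0.48 ± 0.10, and fip-2 was called by DESeq2 with an adjusted p of 0.0471 while its edgeR adjusted p was 0.522. Each overlaps a gene on the opposite strand.

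Cytosolic ribosomal protein genes were lower by a small step, with 76 of 80 negative and a median of -0.18, and in 2 of 80 (2.5%) the doses did not overlap, beside 6.26% of all genes lower and 4.69% higher. That median was -0.02 without 400 ng/g replicate 2 and -0.29 without 400 ng/g replicate 1. Body muscle, proteasome, histone and DNA replication genes had medians of 0.08, 0.01, 0.00 and 0.02. Without 400 ng/g replicate 1 the medians of body muscle and proteasome genes were -0.12 and -0.13, and without 400 ng/g replicate 2 they were 0.29 and 0.16, with all 33 tested genes of each list positive. Those of histone and DNA replication genes were -0.11 and -0.04 without 2000 ng/g replicate 3.

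**Figure D4:**
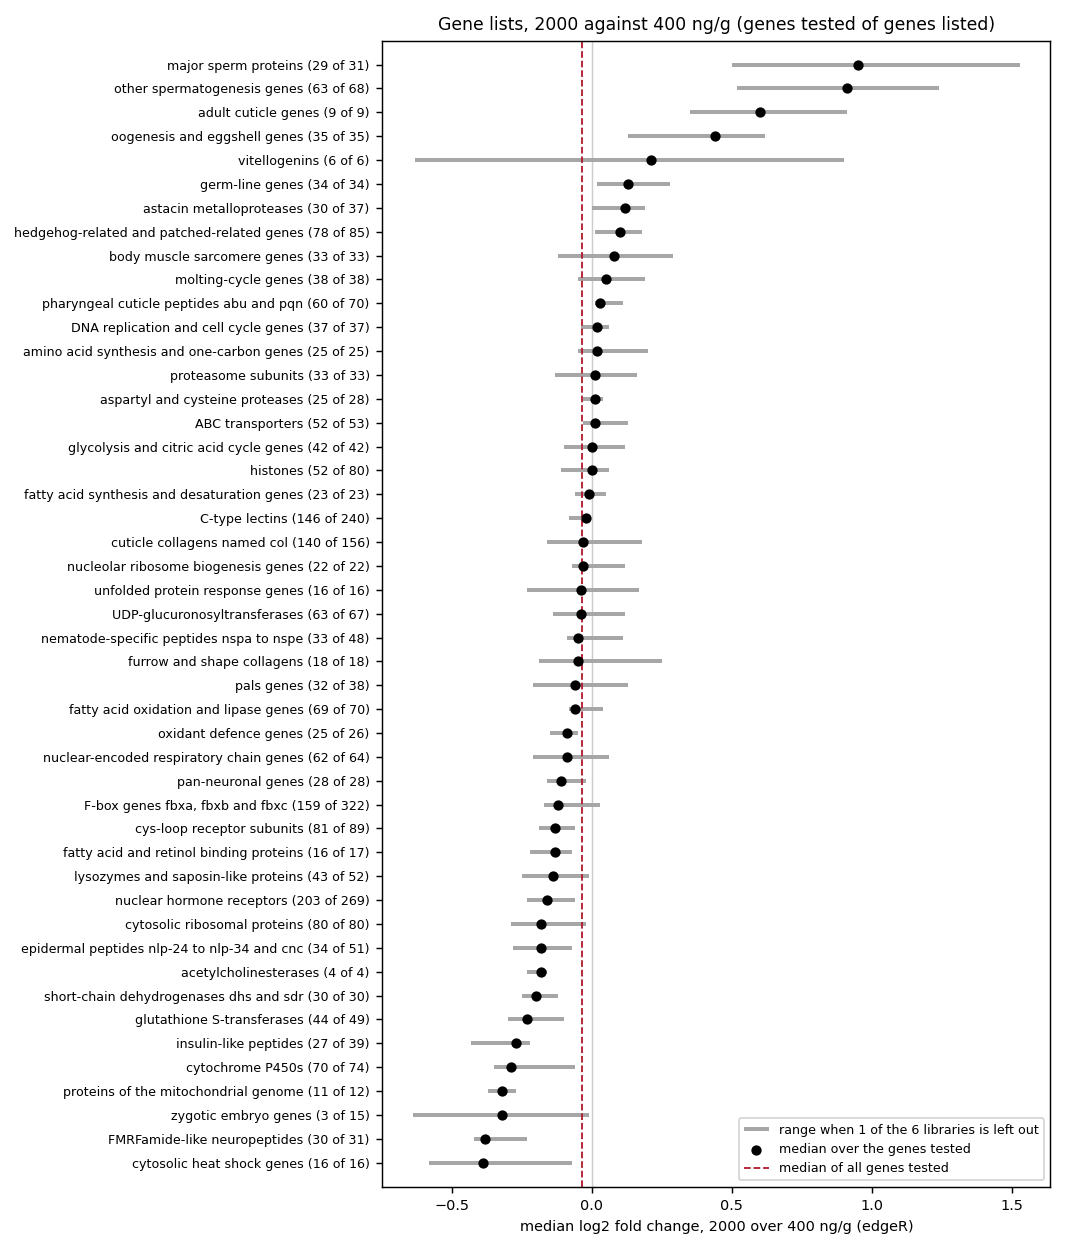
Median log2 fold change, 2000 over 400 ng/g, of the tested genes of each of 47 lists (dots), with the range of the median when each of the 6 libraries in turn is left out (grey bars) and the median of all genes (dashed red line). Sperm, adult cuticle and oocyte lists lie to the right and mitochondrial, FLP and heat shock lists to the left, with short bars for the mitochondrial genes and long ones for sperm and heat shock genes.

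Acetylcholinesterases, which end transmission at cholinergic synapses and are the classic targets of organophosphates, all had small negative values. In ace-2 (WBGene00000036, chromosome I, 3301368 to 3307935) there were 59.4, 59.7 and 54.9 CPM at 2000 ng/g and 64, 69.9 and 63.3 CPM at 400 ng/g, a log2 fold change of -0.18 ± 0.094 without overlap. In ace-1 (WBGene00000035, chromosome X) there were 30.6, 34.5 and 32.8 CPM at 2000 ng/g and 45.4, 33.9 and 31.3 CPM at 400 ng/g, with overlap. The log2 fold changes of ace-3 and ace-4, neighbours on chromosome II, were -0.07 ± 0.162 and -0.34 ± 0.234 at 7.25 and 2.09 CPM on average at 2000 ng/g and 7.63 and 2.64 CPM at 400 ng/g. Without 400 ng/g replicate 1 the value of ace-1 was 0.02.

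The genes gst-19, ddn-1 and B0507.8 differed less between 2000 and 400 ng/g than between 10000 ng/g and control. The log2 fold changes of gst-19, ddn-1 and B0507.8 for 10000 ng/g over control were 1.86, 2.59 and 2.41. The glutathione S-transferase gene gst-19 (WBGene00001767, chromosome II, 13625545 to 13627145) had 3.73, 5.64 and 4.95 CPM at 2000 ng/g and 3.29, 3.85 and 3.49 CPM at 400 ng/g, and a log2 fold change of 0.43 ± 0.186 with overlap. The neighbouring genes ddn-1 and B0507.8 (chromosome V, 8758820 to 8760516 and 8760622 to 8762961) had log2 fold changes of 0.35 ± 0.261 and 0.27 ± 0.244. In ddn-1 there were 8.01, 10.8 and 6.05 CPM at 2000 ng/g and 5.65, 5.92 and 8 CPM at 400 ng/g. The pals genes, known from the response to intracellular pathogens, had 15 of 32 tested positive and a median of -0.06, which ranged from -0.21 without 400 ng/g replicate 3 to 0.13 without 400 ng/g replicate 1.

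Of the genes with at least 5 CPM and separate doses, the 12 of smallest unadjusted edgeR p that were higher at 2000 ng/g had log2 fold changes of 0.41 to 1.44. Leading them was WBGene00015761, a pseudogene annotated with a glycosyltransferase 92 domain (chromosome V, 548713 to 550619), at 5.09, 5.25 and 6.39 CPM at 2000 ng/g and 2.53, 1.52 and 3.09 CPM at 400 ng/g. Its neighbour C14C6.8 (WBGene00015762, chromosome V, 551279 to 553167), a gene with the same domain, had 12.1, 14.4 and 21.6 CPM at 2000 ng/g and 9.44, 5.49 and 9.26 CPM at 400 ng/g. The doses did not overlap in either, the log2 fold changes were 1.22 ± 0.229 and 0.99 ± 0.272, and reads of related copies may be shared.

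The gene F37A8.2 (WBGene00009502, chromosome III, 3929511 to 3931523), for a RING-type domain protein, had 4.46, 4.76 and 7.24 CPM at 2000 ng/g and 2.36, 1.14 and 2.52 CPM at 400 ng/g. The membrane-bound acyltransferase gene mboa-4 (WBGene00007446) had 6.93, 8.09 and 13.9 CPM at 2000 ng/g and 4.83, 2.86 and 4.51 CPM at 400 ng/g. An Argonaute gene of germ-line RNA interference, ppw-1 (WBGene00004093, chromosome I), had 104, 104 and 127 CPM at 2000 ng/g and 72.2, 87.5 and 92.3 CPM at 400 ng/g. In cdh-8, a cadherin gene that overlaps fln-1, there were 25.3, 22.1 and 25.7 CPM at 2000 ng/g and 17.3, 18.4 and 17.4 CPM at 400 ng/g. The others were ZK84.2, ttbk-2.1, the pseudogene WBGene00022760 with a major sperm protein domain, Y54F10BM.3, F54F12.1 and best-11. In all 12 of these genes, replicate 3 at 2000 ng/g was the highest of the 6 libraries. Their log2 fold changes over control, from comparisons that share the controls, were between -0.67 and 0.05 at 2000 ng/g and between -1.88 and -0.42 at 400 ng/g.

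The 12 of smallest p that were lower at 2000 ng/g had log2 fold changes of -0.80 to -0.41, and 11 of them are described above by their roles. The remaining one, C17G1.5 (WBGene00007652, chromosome X, 9938802 to 9944875), an uncharacterised gene that overlaps nas-37, had 7.96, 8.37 and 7.47 CPM at 2000 ng/g and 12, 12.2 and 10.2 CPM at 400 ng/g. In 8 of the 12, replicate 1 at 400 ng/g was the highest of the 6 libraries.

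**Figure D5:**
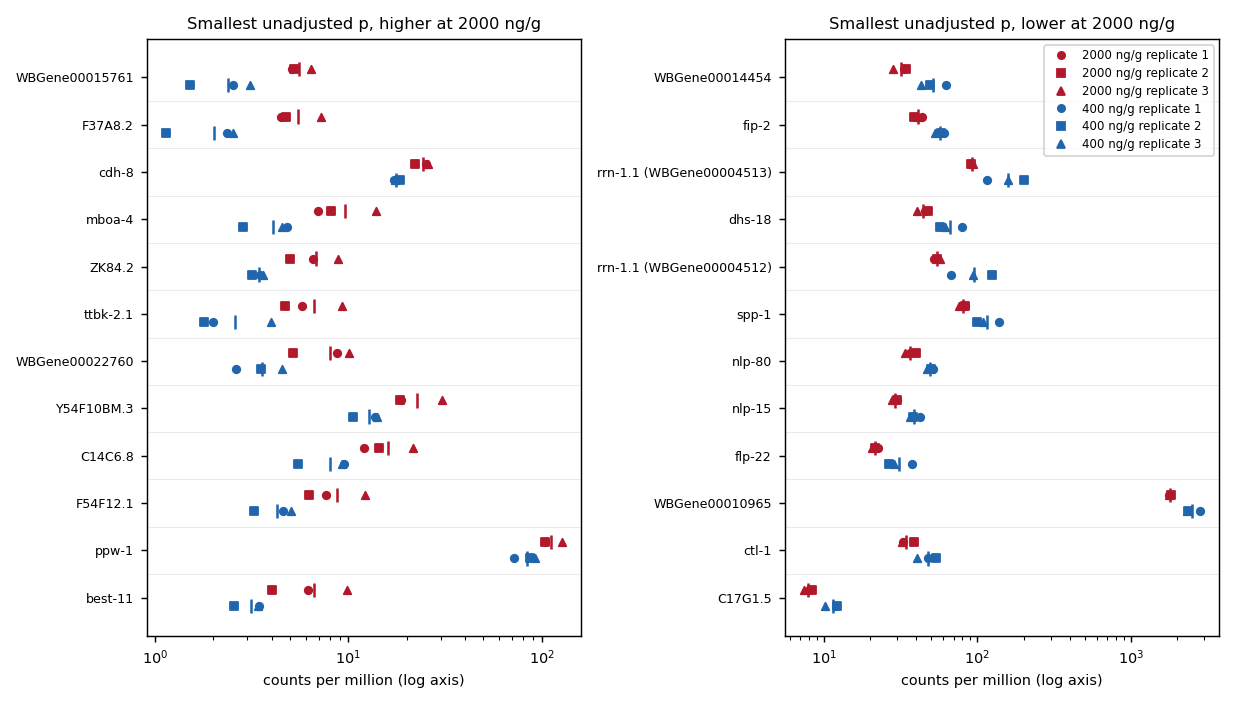
CPM (log axis) of the 12 genes higher and the 12 lower at 2000 ng/g that had at least 5 CPM, doses without overlap and the smallest unadjusted edgeR p in each direction. Symbols are libraries, with 2000 ng/g in red above 400 ng/g in blue, and short bars are means of 3. Genes on the left have replicate 3 at 2000 ng/g farthest right, with a spread at that dose that is wide in mboa-4 and narrow in cdh-8. On the right, the copies of rrn-1.1 have close symbols at 2000 ng/g.

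By location, doses were apart in shares to be read beside 6.26% lower and 4.69% higher over all genes. On chromosomes X and V, 7.26% and 7.16% of the genes tested were lower without overlap and 3.23% and 4.33% higher, and on chromosome I 4.43% were lower and 4.97% higher. By type, 59 of 635 tested pseudogenes (9.29%) lay higher without overlap and 31 (4.88%) lower, against 4.52% higher and 6.28% lower among 15809 protein-coding genes.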

How the data were processed

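The authors deposited raw read counts per gene and FPKM values for the same 12 libraries; the submitters' processing notes list HISAT2 2.2.1, featureCounts 2.0.6, DESeq2 1.42.0 and CASAVA, without settings. Not given in the sources used here are the genome build, the strand setting and the handling of reads with several matches. Of 46987 features in the deposited counts, 46926 matched WBcel235 in Ensembl release 115, to which coordinates refer, and 61 had no identifier there. The deposited FPKM values were used for stage and tissue markers only.

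Counts were tested in R 4.3.3 with edgeR 4.0.16 (two-sided quasi-likelihood F test, TMM factors, filterByExpr) in 1 fit of all 12 libraries with a mean per group, and adjusted by Benjamini-Hochberg over 16665 genes with a threshold of 0.05. SE was computed as log2 fold change over root F. The common dispersion, 0.0579, corresponds to a coefficient of variation of 24.1% between libraries. CPM is scaled by TMM, and log2 CPM has a prior count of 2. CPM is not corrected for length, so levels are compared between libraries, not genes.

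Named genes had at least 5 CPM at either dose and no overlap between doses, up to 12 per direction by adjusted p and size, and, where too few passed, by the smallest unadjusted p. Up to 2 positive and 2 negative members per list by p, with at least 1 CPM, and ace-1 to ace-4, gst-19, ddn-1 and B0507.8 were added. Other genes were named after their values were seen. The 47 lists and the rule were chosen with earlier results of these data known. The steps were tested on simulated counts. Alternatives were other scalings, no filter, only the 6 libraries, a replicate block, a 1.5-fold minimum, DESeq2 and leaving out each library. Total counts per library and the shares of 3 libraries per dose limit the precision, and every pair of libraries within a dose differed beyond counting noise (lowest chi-square over degrees of freedom 12.2).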

Additional observations from a re-analysis of the deposited data

How the results depend on the processing

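The counts of 0 genes higher and 0 lower in edgeR were the same under RLE and upper-quartile factors, without the low-count filter (24841 genes), in a fit of only the 6 libraries (16035 genes), against a 1.5-fold minimum, and without each of the 12 libraries, where both counts ranged from 0 to 0. DESeq2 gave 6 higher and 6 lower. Adding the replicate number as a replicate block gave 0 higher and 0 lower. The main fit did not treat the numbers as pairs. Deviations of same-numbered libraries correlated at -0.141, 0.197 and 0.231, where any pair across the doses lay between -0.328 and 0.231. These values do not decide whether the numbers are pairs. With the block, an unadjusted edgeR p under 0.05 was met by 17 of 29 major sperm protein genes, beside 10 without it. The count rose from 27 to 36 of 63 for other spermatogenesis genes. It fell from 19 to 17 of 30 for FLP genes and from 1543 to 1425 for all genes. Genes with an unadjusted edgeR p under 0.05 numbered 1543 over all libraries, 875 in the 6-library fit and, over the 12 single omissions, between 559 (without 2000 ng/g replicate 3) and 2138 (without 400 ng/g replicate 3). The split of these moved from 849 higher and 694 lower to 446 higher and 1055 lower without 400 ng/g replicate 2. Neither other scaling moved the median of all genes by over 0.1, and 43 of 47 list medians kept their sign under both, while 25 of 47 did so over omission of each of the 6 libraries. Of 63 named genes followed, 5 changed sign under some alternative: without 400 ng/g replicate 1, clec-47, fat-5, cpr-2 and ace-1, and without 2000 ng/g replicate 2, B0507.8. Over single omissions the log2 fold change ranged from -4.42 to 0.88 for clec-47, -2.5 to 0.55 for fat-5, -6.1 to 0.78 for cpr-2, -0.27 to 0.02 for ace-1 and -0.03 to 0.51 for B0507.8. The difference in ribosomal RNA share of counts ranged from -0.247 to -0.147 percentage points over omissions and was -0.204 among protein-coding plus ribosomal counts. The causes were not tested. With 3 libraries a dose, the exact permutation test could not go below 0.1.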
